A study of Homo sapiens with 12 samples.

Results

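RNA-seq of H1, an established line of human embryonic stem cells, was examined for the natriuretic peptides and the genes that process and receive them. The 7 members were taken by gene symbol, out of 61806 genes in the count table: the peptide genes NPPA, NPPB and NPPC, the protease gene CORIN, and the receptor genes NPR1, NPR2 and NPR3. All cells were brought to mesendoderm with the WNT activator CHIR99021 in DF medium and later received insulin. NP-IWP2 cells were left in place (static culture) and were given IWP2, a WNT inhibitor, from Day 2 to Day 4. P-DF cells, which the labels call a passaged control, were dissociated and replated on Day 2 and received no IWP2. P-IWP2 cells had both the passage on Day 2 and IWP2. Each treatment had 2 libraries on Day 12 and 2 on Day 16, 12 in all from 1 cell line. The series has no static culture without IWP2, so P-DF differed from NP-IWP2 in at least the passage and the inhibitor. The paper also describes splitting of passaged cells and the use of Y27632, a ROCK inhibitor that aids survival after dissociation. Passaged and static cells may therefore differ in cell density and in this drug as well.

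Natriuretic peptides are hormones that the heart releases into the blood and that lower blood volume and pressure. NPPA encodes atrial natriuretic peptide (ANP) and NPPB encodes brain natriuretic peptide (BNP); both are secreted by cardiomyocytes, are abundant in the embryonic heart and rise again in the stressed adult ventricle. NPPC encodes C-type natriuretic peptide, a local signal of endothelium and growing cartilage. Corin, a protease on the surface of cardiomyocytes, cuts pro-ANP to its active form. NPR1 encodes NPR-A, the guanylyl cyclase receptor of ANP and BNP; NPR2 encodes NPR-B, the guanylyl cyclase receptor of C-type natriuretic peptide; and NPR3 encodes NPR-C, which removes all of these peptides from the circulation.

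Between 14885589 and 19176239 reads were counted on genes per library, with a median of 16452289. Levels are given as FPKM, the count scaled to the exon length of the gene and to the total count of the library, so they can be compared between genes, and as mean ± SD with n = 2. In the tests, log2FC is the difference between groups on a log2 scale, with its standard error (SE), and a gene was called at an adjusted p under 0.05 by edgeR. The Day 12 library P-IWP2 replicate 5 stood apart. The correlation with its partner was 0.917, against 0.985 to 0.991 in the other pairs, which alone cannot say which of the 2 differs. The sum of 6 fibroblast markers on Day 12 was 31.6 FPKM in replicate 6 and 21.6 to 26.7 FPKM in P-DF. It was 673 FPKM in replicate 5, the library unlike the other passaged ones. Tests of members and counts of called genes in each list are therefore given with and without replicate 5. In every comparison with static cells, a larger share of all genes was called without it. Those shares are given further below with the members, and list counts without it are to be read beside them. Markers of cardiomyocytes were abundant in all groups, with summed levels of 2116 FPKM in that library and 4415 to 5046 FPKM in the others on Day 12. On Day 16 they differed by treatment, at 2770 to 3440 FPKM in NP-IWP2 and 7554 to 9373 FPKM in passaged cells. No label says that the 2 libraries of a group came from separate cultures, so p-values measure only the spread between these libraries, which may be technical. In bulk RNA, fewer cells of a type and less RNA per cell cannot be told apart.

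Promoter sequences of 6 of the 7 members were taken from RefSeq (GRCh38.p14), in 7 entries since NPR3 has 2; NPPB was named only. The 250 bases before the start are shown for NPPA and NPR1, the members with the highest and the lowest log2FC of P-IWP2 against NP-IWP2 on Day 16 among those called, and for NPPC, the third peptide gene. The NPPA window is chr1:11847784-11848033 on the minus strand, inside the longer NPPA gene model of the count table. The NPPC window is chr2:231926397-231926646 on the minus strand, and the NPR1 window is chr1:153678438-153678687 on the plus strand. Capitals mark 4 motifs on either strand. The GATA factor core was searched as the letters GATAA. For NK homeobox factors the letters searched were AAGTG. For T-box factors a half-site was searched as GGTGT. The TATA box was searched as TATAAA.
NPPA: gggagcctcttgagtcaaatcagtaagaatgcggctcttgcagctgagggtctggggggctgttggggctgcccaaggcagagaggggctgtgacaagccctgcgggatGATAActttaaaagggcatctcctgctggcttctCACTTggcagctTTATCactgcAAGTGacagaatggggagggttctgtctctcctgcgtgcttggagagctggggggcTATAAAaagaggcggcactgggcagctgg
NPPC: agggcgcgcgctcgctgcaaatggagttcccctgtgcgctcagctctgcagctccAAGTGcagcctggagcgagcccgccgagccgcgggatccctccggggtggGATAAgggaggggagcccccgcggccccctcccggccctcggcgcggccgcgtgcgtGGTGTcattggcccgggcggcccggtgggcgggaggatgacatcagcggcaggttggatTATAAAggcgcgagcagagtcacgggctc
NPR1: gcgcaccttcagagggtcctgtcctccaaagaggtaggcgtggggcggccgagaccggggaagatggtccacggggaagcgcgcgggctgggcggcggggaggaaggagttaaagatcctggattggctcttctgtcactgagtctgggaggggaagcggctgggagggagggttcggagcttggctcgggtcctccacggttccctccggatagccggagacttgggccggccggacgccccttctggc
The NPPA window held the GATA core 2 times, the NK homeobox core 2 times and the TATA box 1 time, and NPPC held each of the 4 motifs 1 time. The NPR1 window held none of these letters. Of 35116 promoters of the same length, 20.4% held the GATA core, 37.6% the NK homeobox core, 32.2% the T-box half-site and 10.7% the TATA box, and no bases of these motifs overlapped within the windows shown. A match here is a description of letters and no evidence of binding.

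NPPA (ENSG00000175206, chromosome 1, 11845709 to 11848345, minus strand) increased between Day 12 and Day 16 in passaged cells and was higher in P-IWP2 than in static cells on Day 16. On Day 12, NPPA was at 13.25 and 7.69 FPKM in NP-IWP2, 13.56 and 2.74 FPKM with P-DF and 26.21 and 9.56 FPKM in P-IWP2. These ranges overlapped in all 3 treatments. Day 16 levels of NPPA were 59.01 and 21.05 FPKM in NP-IWP2, 117.84 and 118.16 FPKM with P-DF and 238.92 and 464.95 FPKM in P-IWP2. The 3 treatments did not overlap on Day 16 and stood in the order P-IWP2 (352 ± 160), P-DF (118 ± 0.23) and NP-IWP2 (40.0 ± 26.8). All 6 Day 12 libraries except P-IWP2 replicate 5 were below all 6 Day 16 libraries.

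The Day 16 difference of P-IWP2 from NP-IWP2 had a log2FC of 3.40 (SE 0.78, adjusted p = 0.0188). NPPA was 1 of 3 members called in that comparison, in which 17.1% of the 19505 genes tested were called. The call was lost without NP-IWP2 replicate 2 of Day 16 (log2FC 2.82, adjusted p = 0.14) and without P-IWP2 replicate 6 of Day 16 (2.76, adjusted p = 0.104). P-DF against the same static libraries gave 1.76 (SE 0.73, adjusted p = 0.134), and 1.76 (SE 0.53, adjusted p = 0.0219) without P-IWP2 replicate 5 of Day 12. On Day 12, the log2FC was -0.28 for P-DF (adjusted p = 0.866) and 0.70 for P-IWP2 (adjusted p = 0.839), and 0.70 turned to -0.05 without replicate 5. The 2 passaged treatments were compared with the same static libraries, so their results are not independent.

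From Day 12 to Day 16, NPPA rose in P-DF by 4.11 (SE 0.82, adjusted p = 0.0138) and in P-IWP2 by 4.77 (SE 0.83, adjusted p = 0.00528) on the log2 scale. In NP-IWP2 the difference was 2.07 (SE 0.76, adjusted p = 0.182), and 2.07 (SE 0.58, adjusted p = 0.0276) without P-IWP2 replicate 5 of Day 12. NPPA was the only member called over time in P-DF, where 13.6% of genes were called, and 1 of 3 in P-IWP2, where 27% were. In NP-IWP2, no member and 1.98% of genes were called. Without P-DF replicate 4 of Day 12 the P-DF value was 3.34 (adjusted p = 0.0927), and without either Day 16 P-DF library it was 4.10 or 4.12 (adjusted p = 0.0712 or 0.0576). The P-IWP2 call was lost only in the edgeR fit of the groups compared alone (adjusted p = 0.106), which called 0 of 17080 genes. The change over time in P-IWP2 exceeded that in NP-IWP2 by 2.70 (SE 1.05, adjusted p = 0.188), which did not pass the test. Without replicate 5 this difference was 3.45 (SE 0.96, adjusted p = 0.0439).

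Markers of cardiomyocytes stood in the same order of treatments as NPPA on Day 16, but did not follow NPPA over time in static cells. The summed level of 9 such markers was 2770 to 3440 FPKM in NP-IWP2, 7554 to 7885 FPKM in P-DF and 8915 to 9373 FPKM in P-IWP2, the same order as that of NPPA. Of the 9, 5 were higher and 1 lower in P-DF, and 4 higher and 1 lower in P-IWP2, where 15.3% and 17.1% of all genes were called. The median log2FC over the 9 was 1.26 and 1.33, and without P-IWP2 replicate 5 of Day 12 there were 8 higher and 1 lower in each treatment. The sum of 5 ventricular markers was 678 to 1115 FPKM in NP-IWP2, 4249 to 4948 FPKM in P-DF and 3974 to 4325 FPKM in P-IWP2. MYL2, the ventricular regulatory light chain of myosin, was the only one of the 5 called with all libraries, and rose from 4.52 and 38.65 FPKM in NP-IWP2 to 1121 to 1662 FPKM in passaged cells (log2FC 6.31 and 5.95, adjusted p = 0.0113 and 0.0126); without that library 5 of the 5 were higher in P-DF and 3 in P-IWP2. Atrial markers went the other way, with a sum over 6 genes of 443 to 464 FPKM in NP-IWP2, 78.6 to 115 FPKM in P-DF and 98.9 to 154 FPKM in P-IWP2. MYH6, the alpha myosin heavy chain, which is in both the cardiomyocyte and the atrial list, and SLN, the sarcoplasmic peptide sarcolipin of atrial muscle, were the 2 of 6 lower in either treatment, and 4 of 6 were without that library. Trabecular markers also went the other way on Day 16. The sum over 3 genes was 10.5 to 13.1 FPKM in NP-IWP2, 5.62 to 7.17 FPKM in P-DF and 1.67 to 2.07 FPKM in P-IWP2. In NP-IWP2 the cardiomyocyte sum was higher on Day 12, at 4445 to 5046 FPKM. Mean NPPA was lower there, at 10.5 FPKM against 40.0 FPKM on Day 16. P-IWP2 replicate 5 of Day 12 had the highest NPPA of that day (26.21 FPKM) and the lowest cardiomyocyte sum (2116 FPKM). The part of these marker shifts in the NPPA difference was not tested.

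**Figure D1:**
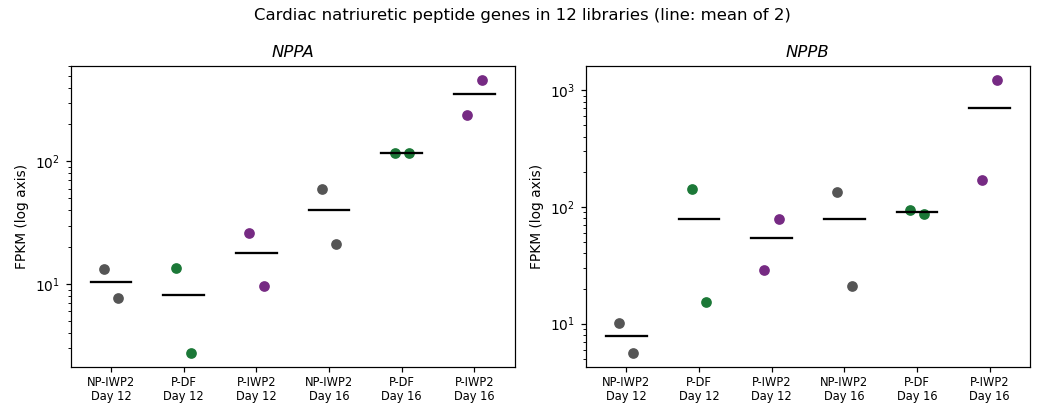
NPPA (left) and NPPB (right) in FPKM on a log axis for each of 12 libraries, by treatment and day; points are libraries and lines the mean of 2. On Day 16 the NPPA ranges of the 3 treatments do not overlap, while NPPB spans 20.91 to 135.62 FPKM within NP-IWP2 alone.

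NPPB (ENSG00000120937, chromosome 1, 11857464 to 11858945, minus strand) lies 9119 bases from NPPA and reached the highest level of any member, but its libraries differed widely within groups. On Day 12, NPPB was at 10.2 and 5.61 FPKM in NP-IWP2, 141.38 and 15.31 FPKM with P-DF and 29.0 and 79.36 FPKM in P-IWP2. All 4 passaged libraries were above both static libraries on that day. By Day 16, NPPB was at 135.62 and 20.91 FPKM in NP-IWP2, 94.91 and 87.74 FPKM with P-DF and 172.02 and 1238.36 FPKM in P-IWP2. P-IWP2 lay above the others, while P-DF lay inside the range of NP-IWP2. The 2 libraries of a group differed 9.23-fold in P-DF on Day 12, 6.49-fold in NP-IWP2 on Day 16 and 7.20-fold in P-IWP2 on Day 16, but 1.08-fold in P-DF on Day 16.

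None of the 4 comparisons of NPPB with static cells passed the test. On Day 12, the log2FC was 3.40 for P-DF (SE 1.35, adjusted p = 0.19) and 2.80 for P-IWP2 (SE 1.33, adjusted p = 0.476). For Day 16 it was 0.41 for P-DF (SE 1.19, adjusted p = 0.845) and 3.45 for P-IWP2 (SE 1.30, adjusted p = 0.0967). Without P-IWP2 replicate 5 of Day 12, the last value was 3.45 (SE 1.02, adjusted p = 0.0183) and the other 3 stayed above the threshold, with adjusted p = 0.0528 in P-DF on Day 12. NPPB rose over time in P-IWP2, with a log2FC of 4.10 (SE 1.34, adjusted p = 0.0484). Leaving out any of 6 libraries ended this call, and limma and a robust edgeR fit did not make it (adjusted p = 0.067 to 0.0735). Nor did the edgeR fit of only the groups compared, which called 0 of 17080 genes. Without P-IWP2 replicate 6 of Day 16 the value was 1.96 (adjusted p = 0.345). The other 5 libraries were both Day 12 NP-IWP2 libraries, both Day 16 P-DF libraries and P-IWP2 replicate 5 of Day 12, with 3.50 to 4.11 and adjusted p = 0.0741 to 0.0831.

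The balance of the cardiac peptides varied between days and libraries. The ratio of NPPB to NPPA, both in FPKM, was 10.4 and 5.59 in P-DF on Day 12 and 0.81 and 0.74 on Day 16. In P-IWP2 it was 1.11 in replicate 5 and 8.30 in replicate 6 on Day 12, and 0.72 and 2.66 on Day 16. In NP-IWP2 it was 0.77 and 0.73 on Day 12 and 2.30 and 0.99 on Day 16. The days did not overlap in P-DF, where the ratio was higher on Day 12, nor in NP-IWP2, where it was higher on Day 16, and they overlapped in P-IWP2. These ratios were not tested. Over all 12 libraries, log2 FPKM of NPPA and NPPB had a Pearson r of 0.78 and a Spearman rho of 0.78, as a description of libraries that share treatment, day and the same stretch of the genome. In 4 of the 6 groups the same library was the higher for both genes; the exceptions were P-IWP2 on Day 12 and P-DF on Day 16.

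**Figure D2:**
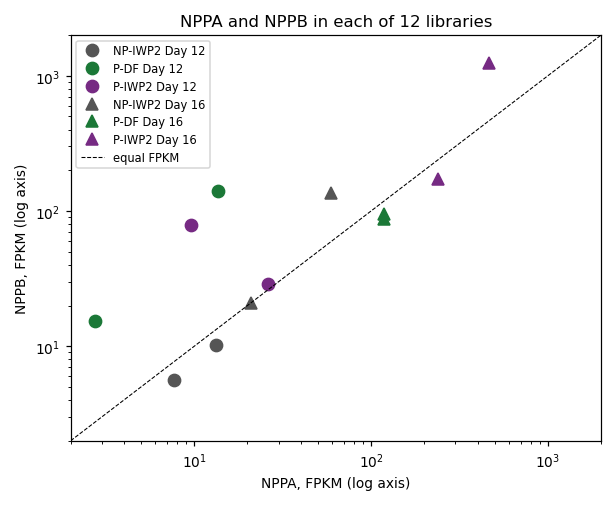
NPPB against NPPA, both in FPKM on log axes, for each of the 12 libraries; colors mark treatments, circles Day 12, triangles Day 16 and the dashed line equal levels. The P-DF libraries of Day 12 lie above the line (ratios 10.4 and 5.59) and those of Day 16 just below it (0.81 and 0.74).

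NPPA overlaps CLCN6, a chloride transporter gene on the opposite strand, and 286 of its 1120 exon bases (25.5%) are shared with CLCN6 exons in GENCODE v44. Whether the counting used the strand is not given in the sources used here. It is thus not known whether reads in the shared bases were counted for a gene or set aside. CLCN6 ranged only from 957 to 1342 counts over the 12 libraries, and its log2FC was 0.34 for P-DF and 0.38 for P-IWP2 on Day 16, neither called with all libraries (adjusted p = 0.145 and 0.108) and both called without P-IWP2 replicate 5 of Day 12 (adjusted p = 0.0427 and 0.025). MFN2, a listed gene of the same locus that encodes a protein of mitochondrial fusion, was higher on Day 16 by 1.08 for P-DF (adjusted p = 0.0371) and 1.31 for P-IWP2 (adjusted p = 0.0174).

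NPPC (ENSG00000163273, chromosome 2, 231921809 to 231926396, minus strand) was near the limit of detection, with 68 counts in all 12 libraries together. On Day 12, it had 3 and 2 counts in NP-IWP2, 4 and 1 with P-DF and 24 and 4 in P-IWP2, the 24 being in replicate 5. Day 16 libraries had 16 and 11 counts in NP-IWP2, 1 and 0 with P-DF and 2 and 0 in P-IWP2. The static libraries of Day 16 were above all 4 passaged libraries of that day. The 27 static counts against 1 in P-DF give a ratio per counted read of 26.2 (95% exact interval 4.32 to 1073), and against 2 in P-IWP2 a ratio of 14.3 (3.60 to 124). These intervals cover counting error only. Neither difference was called (adjusted p = 0.0631 and 0.0778), and both were without P-IWP2 replicate 5 of Day 12 (adjusted p = 0.0112 and 0.017). On Day 12, NPPC was not called in either passaged treatment (adjusted p = 0.933 and 0.38).

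CORIN (ENSG00000145244, chromosome 4, 47593999 to 47838106, minus strand) had another pattern than NPPA, whose product it cuts. On Day 12, it was at 10.03 and 9.41 FPKM in NP-IWP2, 19.08 and 12.29 FPKM with P-DF and 2.11 and 23.93 FPKM in P-IWP2. P-DF was above NP-IWP2 on that day, and the P-IWP2 libraries lay on both sides of the other 4. Day 16 levels were 34.66 and 34.62 FPKM in NP-IWP2, 26.31 and 26.14 FPKM with P-DF and 13.22 and 6.24 FPKM in P-IWP2. In FPKM, the treatments did not overlap on Day 16 and stood in the order NP-IWP2 (34.6 ± 0.028), P-DF (26.2 ± 0.12) and P-IWP2 (9.73 ± 4.94), the reverse of that of NPPA. FPKM carry no correction for composition, and the step from NP-IWP2 to P-DF did not pass the test. Its log2FC by edgeR was -0.17 (SE 0.82, adjusted p = 0.909), and also -0.17 without P-IWP2 replicate 5 of Day 12. Over the 12 libraries, CORIN and NPPA had a Pearson r of 0.15 in log2 scaled counts, given as a description.

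No comparison of CORIN was called with all libraries. The Day 12 P-IWP2 pair disagreed, with replicate 5 the lowest of all 12 libraries and replicate 6 above both static libraries of that day. On Day 16, the log2FC against NP-IWP2 was -1.58 in P-IWP2 (SE 0.84, adjusted p = 0.22) and -0.17 in P-DF (SE 0.82, adjusted p = 0.909). Without replicate 5, CORIN was lower in P-IWP2 on Day 16 than in NP-IWP2 (-1.57, SE 0.25, adjusted p = 0.000337) and than in P-DF (-1.40, SE 0.25, adjusted p = 0.0136). On Day 12 it was then higher in P-DF (0.78, adjusted p = 0.0417) and in P-IWP2 (1.39, adjusted p = 0.0057). Over time it then rose in NP-IWP2 (1.95, adjusted p = 0.000302) and in P-DF (1.00, adjusted p = 0.00912) and fell in P-IWP2 (-1.02, adjusted p = 0.0241). The difference of this change between P-IWP2 and NP-IWP2 was -2.96 (SE 0.38, adjusted p = 0.000518). Leaving out replicate 6 in place of replicate 5 turned the values that rest on this pair, to -2.35 on Day 12 (adjusted p = 0.000556), 2.73 over time in P-IWP2 (adjusted p = 4.98e-05) and 0.78 for the difference of the changes (adjusted p = 0.181), so their direction depends on which library is kept. The Day 16 values were -1.57 and -1.40 and the changes in NP-IWP2 and P-DF 1.95 and 1.00, whichever of the pair was left out. With all libraries the 3 changes over time and their difference were 1.95, 1.00, -0.12 and -2.07, with adjusted p = 0.246, 0.459, 0.926 and 0.341. In the fits without replicate 5 or 6, P-IWP2 on Day 12 was 1 library, assumed to vary like the other groups.

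Of 6 other genes listed for the processing and breakdown of these peptides, all were tested, and 3 were lower and 0 higher in P-DF than in static cells on each day. In P-IWP2, 2 were lower on Day 12 and 3 on Day 16. Of all genes, 4.01% and 15.3% were called in either direction in P-DF, and 1.66% and 17.1% in P-IWP2, on Day 12 and Day 16. Without P-IWP2 replicate 5 of Day 12, 4 and 3 were lower in P-DF and 3 and 3 in P-IWP2. Their median log2FC on Day 16 was -0.96 for P-DF and -1.65 for P-IWP2, beside -0.02 and -0.03 over all genes. MME encodes neprilysin, the membrane peptidase that degrades natriuretic peptides, and ranged from 3.46 to 11.64 FPKM in the 4 static libraries and from 0.02 to 0.19 FPKM in the 8 passaged libraries. It was the only one of these genes besides DPP4 to be called in all 4 comparisons with static cells with all libraries, with a log2FC of -7.08 (SE 0.56, adjusted p = 0.000181) for P-DF and -6.74 (SE 0.54, adjusted p = 0.000222) for P-IWP2 on Day 16.

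DPP4, a membrane peptidase that trims BNP, had 347 and 648 counts in NP-IWP2 on Day 16 and 0 in all 4 passaged libraries of that day, and was at least 116-fold higher in static cells than in P-DF and at least 130-fold higher than in P-IWP2, taking 3 counts per library as the limit for a count of 0. PCSK6, the convertase that activates corin, fell to 0.19 FPKM in P-DF and 0.08 to 0.11 FPKM in P-IWP2 from 0.56 FPKM in NP-IWP2 on Day 16 (adjusted p = 0.0216 and 0.00254). FURIN, which cuts pro-BNP, was the most abundant of the list. FURIN on Day 16 was at 20.68 to 20.9 FPKM in NP-IWP2, 15.87 to 16.62 FPKM with P-DF and 17.58 to 17.93 FPKM in P-IWP2, with a log2FC of -0.13 and 0.05, neither called (adjusted p = 0.433 and 0.768). The FPKM are scaled to the total count and the log2FC by TMM, and the sign for P-IWP2 differs between them.

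**Figure D3:**
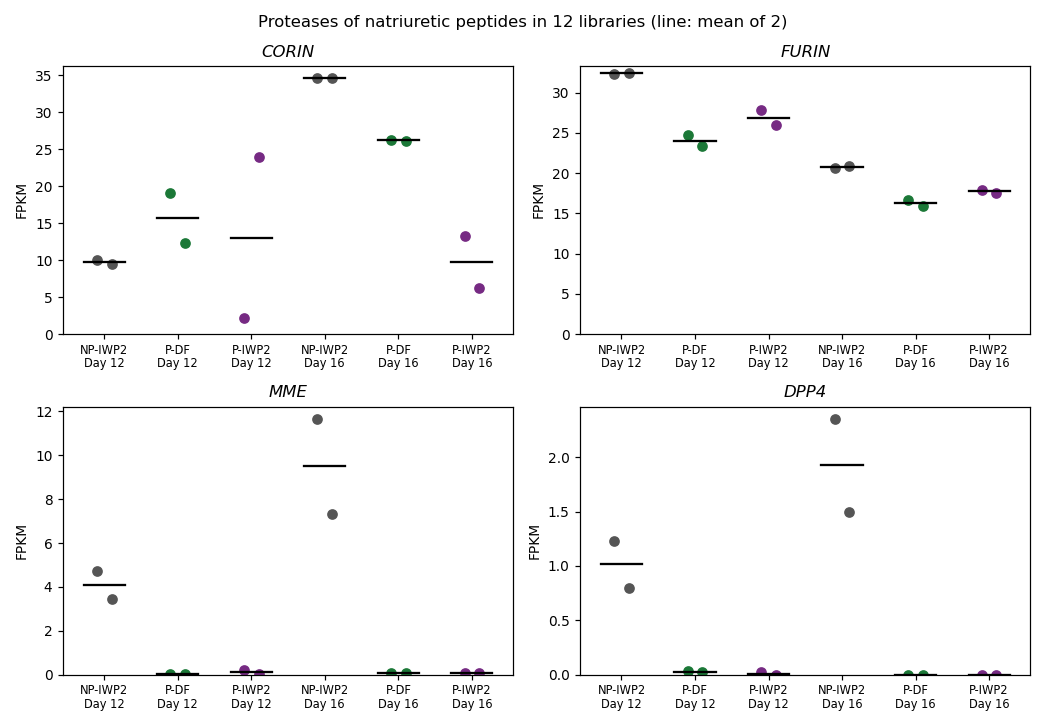
CORIN, FURIN, MME and DPP4 in FPKM on linear axes for each of 12 libraries, by treatment and day; points are libraries and lines the mean of 2. CORIN descends from 34.6 in NP-IWP2 to 9.73 in P-IWP2 on Day 16, and MME stays at or below 0.19 in all passaged libraries.

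NPR1 (ENSG00000169418, chromosome 1, 153678688 to 153693992, plus strand) was nearly undetected in most passaged libraries. On Day 12, NPR1 had 604 and 619 counts in NP-IWP2 (6.83 and 7.64 FPKM), 7 and 0 in P-DF, and 104 and 4 in P-IWP2, the 104 (1.34 FPKM) being in replicate 5. The Day 16 counts were 525 and 409 counts in NP-IWP2 (5.56 and 5.14 FPKM), 7 and 0 in P-DF, and 4 and 0 in P-IWP2. All 4 static libraries were above all 8 passaged libraries. Per counted read, static cells exceeded P-DF by 157-fold on Day 12 (95% exact interval, for counting error only, 76.2 to 392) and by 129-fold on Day 16 (62.6 to 323), and P-IWP2 by 247-fold on Day 16 (96.3 to 910). On Day 12 the ratio to P-IWP2 was 10.6 (8.74 to 13.1), and 148 (57.5 to 543) against replicate 6 alone.

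NPR1 was the only member called in P-DF on Day 12 (log2FC -7.15, SE 1.39, adjusted p = 0.0274), where 4.01% of genes were called. It was 1 of 2 members called in P-DF on Day 16 (-6.73, SE 1.38, adjusted p = 0.013), where 15.3% of genes were called, and was called in P-IWP2 on Day 16 (-7.59, SE 1.49, adjusted p = 0.00998). In P-IWP2 on Day 12, where no member and 1.66% of genes were called, its log2FC was -3.48 (SE 1.03, adjusted p = 0.171), and -7.07 (SE 0.74, adjusted p = 2.81e-05) without replicate 5. The other 3 calls held without that library, at -6.74 to -7.59. They were lost when some single other library was left out. On Day 12 in P-DF this held for any library of NP-IWP2 of either day or of P-DF of Day 12 (-6.13 to -12.1, adjusted p = 0.0618 to 0.22). For Day 16 this held for the NP-IWP2 and P-DF libraries of that day in the P-DF comparison (-5.69 to -11.8, adjusted p = 0.0516 to 0.124) and for either P-IWP2 library in the other (-11.8 and -6.66, adjusted p = 0.0538 and 0.0887). Where the P-DF or P-IWP2 library left out was the one with counts, the remaining one was at 0 and the fitted value depends on the prior count.

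**Figure D4:**
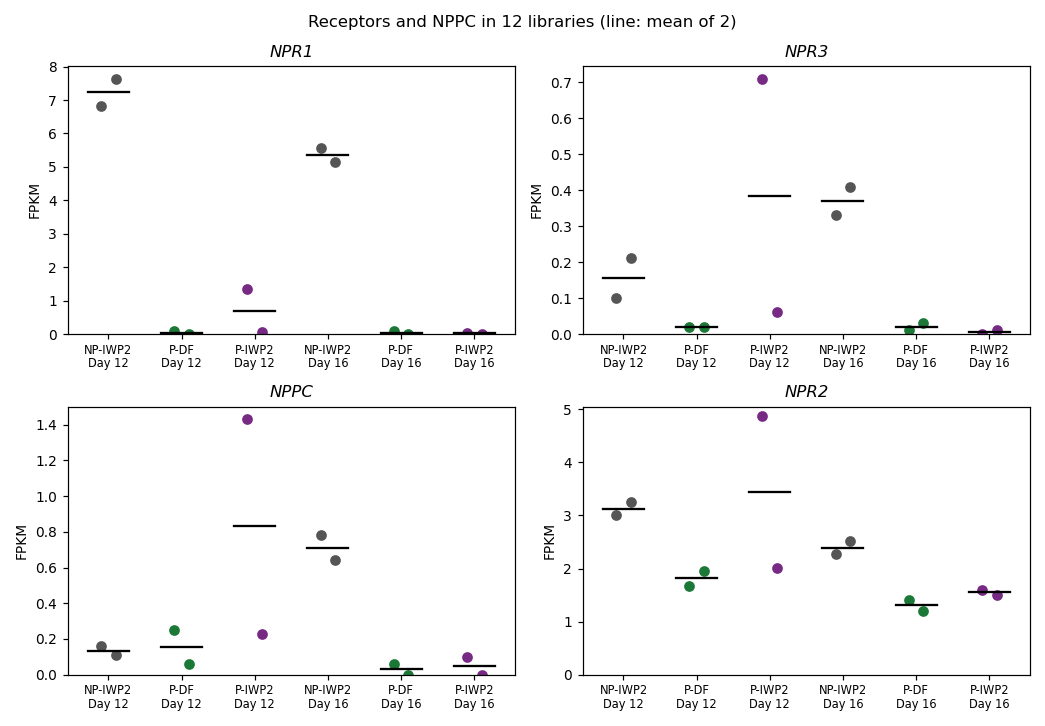
NPR1, NPR3, NPPC and NPR2 in FPKM on linear axes starting at 0 for each of 12 libraries, by treatment and day; points are libraries and lines the mean of 2. All passaged libraries but P-IWP2 replicate 5 of Day 12 (1.34 FPKM) sit at or below 0.09 FPKM for NPR1.

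Markers of other cell types moved with NPR1. The summed level of 6 fibroblast markers was 681 to 700 FPKM in NP-IWP2 on Day 12 and 1179 to 1217 FPKM on Day 16, and 19.6 to 31.6 FPKM in passaged libraries other than P-IWP2 replicate 5 of Day 12, which had 673 FPKM. For 6 epicardial markers it was 28.5 to 75.4 FPKM in static libraries, 136 FPKM in that library and 0.09 to 0.44 FPKM in the other passaged libraries. For 5 hepatic markers it was 322 to 720 FPKM in static libraries and 0.05 to 1.30 FPKM in all passaged libraries, replicate 5 included. Of the fibroblast, epicardial and hepatic markers, 5, 5 and 5 were lower in P-DF on Day 16 (5, 6 and 5 without replicate 5), and none was higher, where 15.3% of all genes were called. AHSG, a liver plasma protein gene, and DCN, a fibroblast matrix gene, were at or under 0.02 FPKM in all 4 passaged libraries of Day 16.

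The sum of 7 endothelial or endocardial markers was 190 to 207 FPKM in NP-IWP2, 165 to 228 FPKM with P-DF and 26.1 (replicate 5) and 238 FPKM in P-IWP2 on Day 12. It was mostly KDR, a receptor of early mesoderm as well as endothelium. By Day 16 the sum was 57.4 to 57.8 FPKM in NP-IWP2, 16.6 to 18.2 FPKM with P-DF and 13.3 to 16.1 FPKM in P-IWP2. TEK, the angiopoietin receptor gene, was at 10.05 to 11.48 FPKM in the 4 static libraries, 1.45 FPKM at most in P-IWP2 on Day 12 and 0 to 0.12 FPKM in passaged cells on Day 16. PECAM1, an endothelial adhesion gene, was at 1.84 to 2.5 FPKM in static cells on Day 12 and 0.11 to 0.2 FPKM in static cells on Day 16. Of the 7, 4 were lower in P-DF on Day 12 and 3 on Day 16, where 4.01% and 15.3% of all genes were called, and 0 and 2 in P-IWP2, where 1.66% and 17.1% were. Without P-IWP2 replicate 5 of Day 12, 6 and 7 were lower in P-DF and 6 and 6 in P-IWP2, where 21.9%, 32.4%, 15% and 34.8% of genes were called. The part of any of these cell types in the NPR1 difference was not tested.

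NPR3 (ENSG00000113389, chromosome 5, 32689070 to 32791724, plus strand) was low throughout, at no more than 0.71 FPKM. On Day 12, it had 18 and 35 counts in NP-IWP2, 3 and 3 with P-DF and 110 and 10 in P-IWP2, the 110 again in replicate 5. NPR3 counts on Day 16 were 63 and 66 counts in NP-IWP2, 1 and 5 with P-DF and 0 and 1 in P-IWP2. Static and passaged libraries did not overlap on Day 16. The ratio of static to passaged cells per counted read was 20.9 (95% exact interval, for counting error only, 9.33 to 57.9) for P-DF and 137 (24.1 to 5441) for P-IWP2.

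On Day 16, NPR3 was lower in P-DF (log2FC -4.12, SE 1.09, adjusted p = 0.0338) and in P-IWP2 (-6.53, SE 1.40, adjusted p = 0.0148). Both calls held without P-IWP2 replicate 5 of Day 12 (-4.12 and -6.52, adjusted p = 0.000152 and 3.5e-05). The P-DF call was lost without any single library of NP-IWP2 or P-DF of either day (-3.46 to -5.53, adjusted p = 0.0541 to 0.19). The P-IWP2 call was lost without NP-IWP2 replicate 2 of Day 16 (-6.42, adjusted p = 0.0631) and without either P-IWP2 library of Day 16 (-5.65 and -8.95, adjusted p = 0.088 and 0.085). On Day 12, the log2FC was -2.87 for P-DF (adjusted p = 0.183) and 1.18 for P-IWP2 (adjusted p = 0.7), and -2.87 (adjusted p = 0.00614) and -1.27 (adjusted p = 0.239) without replicate 5. Over time in P-IWP2 NPR3 fell by 6.36 on the log2 scale (SE 1.41, adjusted p = 0.0129), with a log2FC of -3.91 (SE 1.17, adjusted p = 0.0288) without replicate 5. The fall over time was lost without either Day 16 P-IWP2 library (-5.47 and -8.79, adjusted p = 0.0666 and 0.0812). It was also lost in the edgeR fit of only the groups compared (adjusted p = 0.162), which called 0 of 17080 genes.

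NPR2 (ENSG00000159899, chromosome 9, 35791003 to 35809732, plus strand) was detected in all passaged libraries. On Day 12, it was at 3.01 and 3.25 FPKM in NP-IWP2, 1.68 and 1.95 FPKM with P-DF and 4.87 and 2.01 FPKM in P-IWP2. Its Day 16 levels were 2.28 and 2.51 FPKM in NP-IWP2, 1.41 and 1.2 FPKM with P-DF and 1.59 and 1.51 FPKM in P-IWP2. All passaged libraries except P-IWP2 replicate 5 of Day 12 were below all static libraries. With all libraries it was not called in any comparison: against static cells, the log2FC was -0.70 (SE 0.28, adjusted p = 0.19) and -0.65 (SE 0.28, adjusted p = 0.148) in P-DF, and 0.08 (adjusted p = 0.969) and -0.35 (adjusted p = 0.409) in P-IWP2, on Day 12 and Day 16. Without replicate 5, the log2FC was -0.70 and -0.65 in P-DF and -0.55 and -0.35 in P-IWP2, on Day 12 and Day 16. Whether NPR2 was called in P-DF on either day depended on that library, without which a larger share of all genes was called. P-IWP2 on Day 12 was then 1 library. Its value ran from -0.55 to 0.49 over the alternative fits, so its direction was not settled. The ratio of NPR1 to NPR2, both in FPKM, was 2.05 to 2.44 in static libraries, 0.275 in replicate 5 and 0 to 0.0638 in the other passaged libraries.

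**Figure D5:**
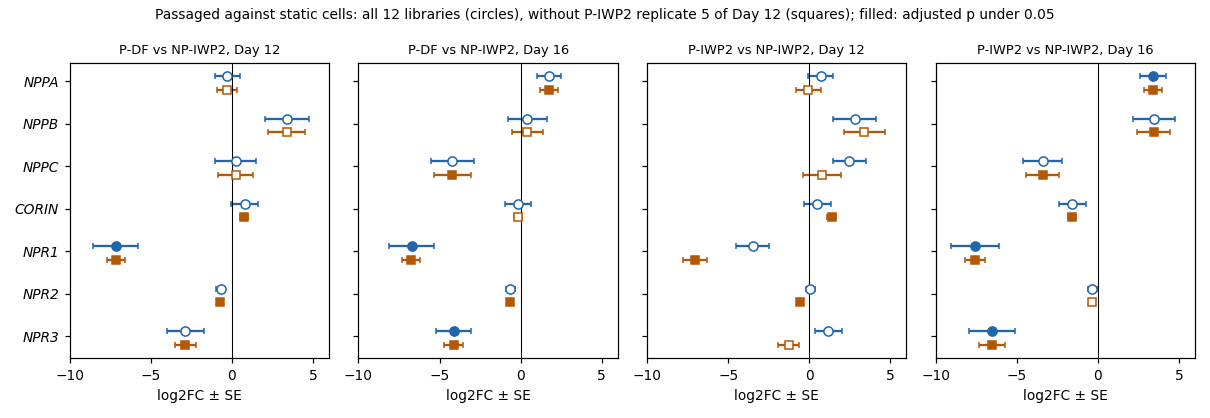
log2FC ± SE of the 7 members against NP-IWP2 in 4 panels, with all 12 libraries (circles) and without P-IWP2 replicate 5 of Day 12 (squares); filled symbols have an adjusted p under 0.05. NPR1 lies near -7 in each panel but P-IWP2 on Day 12, where it moves from -3.48 to -7.07 without that library.

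Without P-IWP2 replicate 5 of Day 12, 4 members were called in P-DF on Day 12, 5 in P-DF on Day 16, 3 in P-IWP2 on Day 12 and 6 in P-IWP2 on Day 16. The shares of all 20518 genes called in the same fits were 21.9%, 32.4%, 15% and 34.8%. Over time, 3 members were called in NP-IWP2, 2 for P-DF and 3 for P-IWP2, where 17.1%, 29.2% and 23.7% of genes were. On Day 16, 1 member and 2.49% of genes then differed between P-IWP2 and P-DF, and on Day 12 0 members and 0% of genes. Leaving out replicate 6 in its place gave similar numbers of calls over all genes in the comparisons that do not use P-IWP2 on Day 12. It gave many more calls for P-IWP2 against P-DF on Day 12, for the change over time in P-IWP2 and for its interaction. Those numbers therefore depend on which library is kept. The numbers given next are again those without replicate 5. For the interactions, 0 and 3 members were called, with 7.62% and 7.89% of genes.

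Receptors of this family act through cyclic GMP, and 16 genes of cyclic GMP signaling were listed and tested. In P-DF, 2 were higher and 1 was lower on Day 12, and 0 were higher and 4 lower on Day 16. In P-IWP2, 1 was higher and 0 lower on Day 12, and 2 were higher and 3 lower on Day 16. The shares of all genes called were 4.01% and 15.3% for P-DF and 1.66% and 17.1% for P-IWP2. Without P-IWP2 replicate 5 of Day 12, the list had 3 higher and 6 lower on Day 12 and 1 higher and 6 lower on Day 16 in P-DF, and 2 higher and 4 lower on Day 12 and 2 higher and 7 lower on Day 16 in P-IWP2. Their median log2FC on Day 16 was -0.83 for P-DF and -0.88 for P-IWP2, beside -0.02 and -0.03 over all genes. PDE3A, a cyclic nucleotide phosphodiesterase that cyclic GMP inhibits, was at 4.88 to 5.86 FPKM in static libraries and 0.05 to 0.42 FPKM in passaged ones, except P-IWP2 on Day 12 with 0.65 and 7.38 FPKM. On Day 16 its log2FC was -4.35 for P-DF (adjusted p = 0.0103) and -6.10 for P-IWP2 (adjusted p = 0.00413).

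PDE9A, a phosphodiesterase specific to cyclic GMP, was lower by -1.89 for P-DF and -1.62 for P-IWP2 on Day 16 (adjusted p = 0.00778 and 0.013). PRKG2, a cyclic GMP-dependent kinase, was lower by -3.04 and -3.76 (adjusted p = 0.0252 and 0.0125). GUCY1A2, a subunit of the soluble guanylyl cyclase that responds to nitric oxide, was higher by 0.92 in P-IWP2 (adjusted p = 0.0134), with 0.55 in P-DF (adjusted p = 0.083, and 0.0186 without replicate 5). The receptor guanylyl cyclase NPR1 and this soluble subunit were thus on opposite sides of static cells in P-IWP2 on Day 16.

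For 11 transcription factors and cofactors listed as activators of the NPPA or NPPB promoter, the number called depended on P-IWP2 replicate 5 of Day 12. With all libraries, 0 were called by edgeR in either passaged treatment on Day 12, where 4.01% and 1.66% of all genes were called, and 2 in P-DF and 1 in P-IWP2 had an unadjusted p under 0.05. On Day 16, 1 was higher in P-DF, and 1 was higher and 1 lower in P-IWP2, where 15.3% and 17.1% were. Larger shares of all genes were called without P-IWP2 replicate 5 of Day 12 as well, as given with the members above. Without that library, 4 were higher and 3 lower in P-DF and 3 higher and 1 lower in P-IWP2 on Day 12, and 3 higher and 0 lower in P-DF and 3 higher and 3 lower in P-IWP2 on Day 16. On Day 16, MYOCD, the cofactor myocardin, was higher in P-DF (0.65, adjusted p = 0.0276) and P-IWP2 (0.77, adjusted p = 0.0137). TBX5, a T-box activator, was lower in P-IWP2 (-1.52, SE 0.30, adjusted p = 0.0107). Its levels were 5.87 to 9.45 FPKM in P-IWP2, 24.96 to 27.71 FPKM in NP-IWP2 and 17.7 to 20.24 FPKM in P-DF. The part of these factors in the NPPA and NPPB differences was not tested. The median log2FC over the 11 was -0.10 with P-DF and close to 0 with P-IWP2. Of 5 listed repressors (TBX2, TBX3, HEY2, REST and JARID2), 0 were called in the 4 comparisons with all libraries by edgeR, and 0 had an unadjusted p under 0.05. Without replicate 5, 1 was higher and 1 lower in P-DF on each day and in P-IWP2 on Day 12, and 0 were higher and 1 lower in P-IWP2 on Day 16.

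The direct comparison of P-IWP2 with P-DF called 0 of 19505 genes on either day by edgeR, so no member was called, with 2061 genes on Day 12 and 1567 on Day 16 at an unadjusted p under 0.05. DESeq2 called 173 and 112 genes. On Day 16, the log2FC was 1.64 (SE 0.72, adjusted p = 0.619) for NPPA and 3.04 (SE 1.27, adjusted p = 0.592) for NPPB, at an unadjusted p of 0.0486 and 0.0396. The tests of whether the passaged-to-static difference changed with the day called 0.482% of genes for P-DF and 1.84% for P-IWP2, and no member. NPR3 in P-IWP2 came nearest, at -7.71 (SE 1.68, adjusted p = 0.0539), and was at -5.26 (adjusted p = 0.0196) without replicate 5.

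Genes with the most similar profile over the 12 libraries were found by the Pearson r of log2 scaled counts. For NPPA they were SETD7 (0.99), MLLT11 (0.99) and CSPG5 (0.98), and for NPPB they were ACTA1, the skeletal muscle actin gene (0.96), and BTBD10 (0.95). For CORIN they were VWC2 (0.95), LGALS3 (0.95) and FXYD6 (0.93). For NPR1 they were INF2, HOXB5 and GRIN2D (0.98 each), and for NPR2 GRIK5 (0.99), STIM1 (0.98) and CTBP1 (0.97). NPPC and NPR3 had a mean under 1 FPKM and were left out. The libraries share treatment and day, and 7.58% of genes had an r over 0.8 with NPPA and 8.01% with NPR1, but 0.653% with CORIN.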

How the data were processed

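The study sequenced RNA of H1 cells under 3 treatments at Day 12 and Day 16, in 2 libraries per treatment and day. Per the labels, the authors used cutadapt 1.9.1, HISAT2 2.0.1, HTSeq 0.6.1 and DESeq2, and the hg38 build. The deposited table holds raw read counts per Ensembl gene. Beside these are FPKM by the authors, which matched counts scaled to exon length and library total within 0.0051. The FPKM carry no correction for composition.

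Counts were tested with edgeR 4.0.16 in R 4.3.3 (TMM, filterByExpr, quasi-likelihood F test, Benjamini-Hochberg over 19505 genes), with all 12 libraries as 6 groups and 11 comparisons, and the SE was taken as the log2FC divided by the root of F. All 7 members passed the filter. Alternatives were DESeq2 1.42.0, median-of-ratios factors, total counts, no filter, a robust fit, limma 3.58.1 on log2(FPKM + 1) or log2(FPKM + 0.1) for genes with a mean of at least 1 FPKM, only the groups compared, a replicate block, and leaving out each library. In counts simulated for P-DF against NP-IWP2 on Day 16 over 18688 genes, edgeR found 38 of 100 genes changed 2-fold and 75 of 100 changed 4-fold, with 8 false calls. The 200 changed genes were drawn only from better counted genes, a range that leaves out NPPC. All other genes were left unchanged, whereas 15.3% of genes were called in the data. These rates are therefore not those of the members.

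The members and gene lists were chosen with earlier results of these data known. Of each list, at most the 4 genes with the smallest adjusted p in the Day 16 comparisons with static cells were named; KDR was named after its values were seen. At most 3 similar genes were named per member with a mean of at least 1 FPKM. A few genes that these rules name are not reported here, nor is the summary of the list of genes around NPPA. Gene positions matched GENCODE v44 for 98.1% of shared genes and for all 7 members. Python 3.11.15, pandas 2.3.3, scipy 1.17.1 and matplotlib 3.10.9 were used for tables and figures.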

Additional observations from a re-analysis of the deposited data

How the results depend on the processing

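Of 41 member values, 32 kept their direction under every alternative run. These were all values against static cells, and others called with all libraries or without P-IWP2 replicate 5 of Day 12. Member values of the other comparisons that were called in neither fit were not counted. The number of members called depended on how the spread was estimated. In the order P-DF against NP-IWP2 on Day 12 and Day 16, P-IWP2 against NP-IWP2 on Day 12 and Day 16, it was 1, 2, 0 and 3. With only the groups compared it was 5, 5, 0 and 5, and without the filter 5, 4, 3 and 6. The calls over all genes moved too, from 783, 2975, 323 and 3336 of 19505 in the main fit. With only the groups compared they were 5361 of 17995, 6927 of 17285, 0 of 18237 and 5127 of 17547. Without the filter they were 3107, 4671, 1527 and 4954 of 40332. Without the filter edgeR gave an infinite prior df (3.35 with it), so that a gene's own spread did not enter its test. limma called 1 member in P-DF on Day 16 with either pseudocount and, with log2(FPKM + 1), 1 in P-IWP2 on Day 12. It left out NPPC and NPR3. Out of 13389 genes it called 2270 and 2390 in P-DF on Day 16 with pseudocounts of 1 and 0.1. With log2(FPKM + 1) it called 177 in P-IWP2 on Day 12. For P-IWP2 against P-DF, where 0 members were called, DESeq2 called 1 on Day 12 and a model of only those groups 2 on Day 16. Without the filter, edgeR called 5 on Day 12 and 3 on Day 16. Over all genes, DESeq2 called 173, the model of those groups 253, and edgeR without the filter 1687 and 645. Over time, 0, 1 and 3 members were called in NP-IWP2, P-DF and P-IWP2. The numbers were 3, 2 and 6 without the filter and 6, 2 and 0 in only the groups compared. Beside them, 2045, 3830 and 6411 genes were called without the filter and 5124, 6274 and 0 in only the groups compared. In P-IWP2 the number of members was 6 with total counts and 1 by limma on log2(FPKM + 1). There, 7378 of 19505 and 5223 of 13389 genes were called. For the interactions with P-DF and P-IWP2, where 0 members were called, edgeR without the filter called 3 and 5. Only the groups compared gave 1 for P-DF, and DESeq2 and total counts 1 each for P-IWP2. The genes called in these fits were 1124 and 2732 without the filter and 2380 in only the groups compared. They were 1425 by DESeq2 and 550 with total counts. Where no cause is given, the cause was not tested.

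Leaving out 1 library at a time gave 0 to 4 and 0 to 5 members for P-DF on Day 12 and Day 16, 0 to 5 and 0 to 6 for P-IWP2, and 0 to 5 and 0 to 1 for P-IWP2 against P-DF. It gave 0 to 3, 0 to 2 and 1 to 7 over time in NP-IWP2, P-DF and P-IWP2, and 0 and 0 to 4 for the interactions. The highest numbers came without either Day 12 P-IWP2 library. In each comparison the most genes over the whole table were also called without 1 of these libraries. These numbers therefore do not set the members apart. Without replicate 6 in place of replicate 5, CORIN in P-IWP2 on Day 12 was -2.35 (1.39 without replicate 5, and -2.35 to 1.39 over left-out libraries), its change over time 2.73 and its interaction 0.78.

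Libraries with equal replicate numbers on the 2 days did not deviate together, with correlations of deviations of 0.08, -0.002 and -0.03 in NP-IWP2, P-DF and P-IWP2, so the numbers were not taken as pairs. With a replicate block, 0, 1 and 5 members were called over time, and 0 and 2 for the interactions. Out of 19505 genes, 154, 1856 and 4659 were called over time, and 12 and 388 for the interactions.

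The reversed values were not called with all libraries. CORIN was 0.50 in P-IWP2 on Day 12, and -0.28 and -0.43 by limma with pseudocounts of 1 and 0.1. Its change over time in P-IWP2 was -0.12, and 0.20 and 0.33 by limma, 0.73 with the replicate block and -1.02 to 2.73 over left-out libraries. The other reversals came from left-out libraries on values near 0 or led by P-IWP2 replicate 5: NPPA was -1.88 to 0.47 in P-DF and -0.05 to 1.17 in P-IWP2 on Day 12 (-0.0504 without replicate 5), NPPB -0.40 to 2.41 in P-DF on Day 16, NPPC -1.07 to 0.94 in P-DF on Day 12, NPR2 -0.55 to 0.49 and NPR3 -1.27 to 2.02 in P-IWP2 on Day 12, and the CORIN interaction -2.96 to 0.78. NPPC had 0 to 24 counts and NPR3 0 to 110 counts per library. Scaling by total counts shifted all genes on Day 16, with their median log2FC going from -0.02 to -0.25 for P-DF and from -0.03 to -0.31 for P-IWP2.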
